A study of Mus musculus with 12 samples.

Results

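The core genes of transforming growth factor beta (TGF-beta) signalling were followed in the adult liver of mice that over-express the microRNA gene Mir483. The group was defined by name as the 3 ligands Tgfb1, Tgfb2 and Tgfb3, the 3 receptors Tgfbr1, Tgfbr2 and Tgfbr3, the signal transducers Smad2 and Smad3, the inhibitory Smad7, and Skil, which encodes the nuclear Smad repressor SnoN. It comprised 10 of the 55401 genes in the table, and all 10 had a row. After the filter on low counts 13205 genes were tested, 9 of the 10 among them, and Tgfb2 was too low to pass.

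RNA was taken from the livers of 12 female mice aged 15 weeks, 6 iTgMir483 and 6 littermate Control. The iTgMir483 animals carry a Tet-off Mir483 transgene, with its transactivator tTA, at the Rosa26 locus of C57BL/6J mice. It is active in most tissues, at levels above the physiological ones, so effects on the liver may arise in other organs. Doxycycline in the drinking water was used to inhibit it during pregnancy, and withdrawal of the drug left Mir483 expressed from birth onward. The Neo selection cassette had been removed with a CMV-Cre line, and both groups came from these crosses and ate standard chow. These are bulk liver RNA samples, in which a change in the number of cells of one type and a change in the RNA made per cell cannot be told apart.

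TGF-beta ligands are made as latent dimers that stay bound to a propeptide and to carrier proteins until integrins, proteases or thrombospondin release them. The active ligand binds the type II receptor Tgfbr2, which phosphorylates the type I receptor Tgfbr1, and Tgfbr1 then phosphorylates Smad2 and Smad3. These enter the nucleus with Smad4 and act on target genes, among them Smad7 and Skil, which feed back to limit the signal. In liver the pathway is best known for restraining hepatocyte division and for driving stellate cells to deposit matrix during fibrosis.

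Mir483 gives a pair of mature microRNAs, and their sequences are shown because 3 of the members carry a match to them. The capitals mark the seed, bases 2 to 8, which pairs with target transcripts. The sequences are those of RefSeq on GRCm38.p6, at chr7:142654932-142654952 for miR-483-3p and chr7:142654968-142654989 for miR-483-5p, both on the minus strand.
miR-483-3p: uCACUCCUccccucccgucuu
miR-483-5p: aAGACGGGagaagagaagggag

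Matches to the seeds were looked for in the longest annotated 3′ UTR of each member on GRCm38. Matches of the 7mer-m8 kind pair with bases 2 to 8 of the microRNA, and those of the 7mer-A1 kind pair with bases 2 to 7 and have an A opposite base 1. A miR-483-3p match lay in the 3′ UTR of Tgfbr1 (7mer-A1, chr4:47413576-47413582, plus strand), of Skil (7mer-m8, chr3:31120824-31120830, plus strand) and of Tgfbr2 (7mer-m8, chr9:116087415-116087421, minus strand). Tgfbr2 also held a miR-483-5p match (7mer-m8, chr9:116087169-116087175, minus strand). The matched bases are in capitals, with 10 bases on either side.
Tgfbr1, miR-483-3p: gtgttatgagGGAGTGAtctgcaaatt
Skil, miR-483-3p: aactatgtttAGGAGTGgaagaaacac
Tgfbr2, miR-483-3p: ggcaagttccAGGAGTGtgaatcaccc
Tgfbr2, miR-483-5p: tggcaacagcCCCGTCTtggaggtctc

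The 3′ UTRs of these 3 genes are long, 4154 bases in Tgfbr1, 3964 in Skil and 6085 in Tgfbr2, against a median of 1164 bases over the tested genes with an annotated 3′ UTR. Of those 12098 genes, 17.6% held a miR-483-3p match and 4.24% a miR-483-5p match. The remaining 7 members held neither, including Smad2 with 6233 bases and Tgfb1 with only 135. A match is a description of the letters and does not show that the microRNA binds there.

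The libraries held between 12244123 and 30431286 counts. Mir483 had 0 counts in all 6 Control libraries, where 3 counts per library is the limit that a count of 0 allows, and 318 to 761 counts in the 6 iTgMir483 libraries, so the labels matched the transgene. Replicate 1 of both groups stood apart from the other libraries on the second principal component, which held 16.0% of the variance. The hepatocyte transcripts Alb, Apoa1, Ttr, Serpina1a and Cyp2e1 were abundant in every library, with a sum of at least 58000 CPM, the read count scaled to the library size.

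Among the 9 tested members, 1 changed, and it rose. A gene was called changed at an adjusted p under 0.05 (edgeR's quasi-likelihood test, adjusted over all 13205 genes) together with a fold change over 1.5. By that rule 8.41% of all tested genes were higher in iTgMir483 and 2.73% were lower, against 1 and 0 members. No tested member had a negative log2 fold change, so 0 were lower at an unadjusted p under 0.05 and 0 by DESeq2 or limma-voom. By adjusted p alone 11.3% of genes were higher and 7.33% lower, against 2 and 0 members. In 5.09% of genes every iTgMir483 library lay above every Control library and in 2.83% every one lay below, and 2 and 0 members did so. The member that changed was the ligand Tgfb1, and the other one past adjusted p was the receptor Tgfbr2. The median log2 fold change of the 9 tested members was 0.27, and that of all tested genes 0.01.

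**Figure D1:**
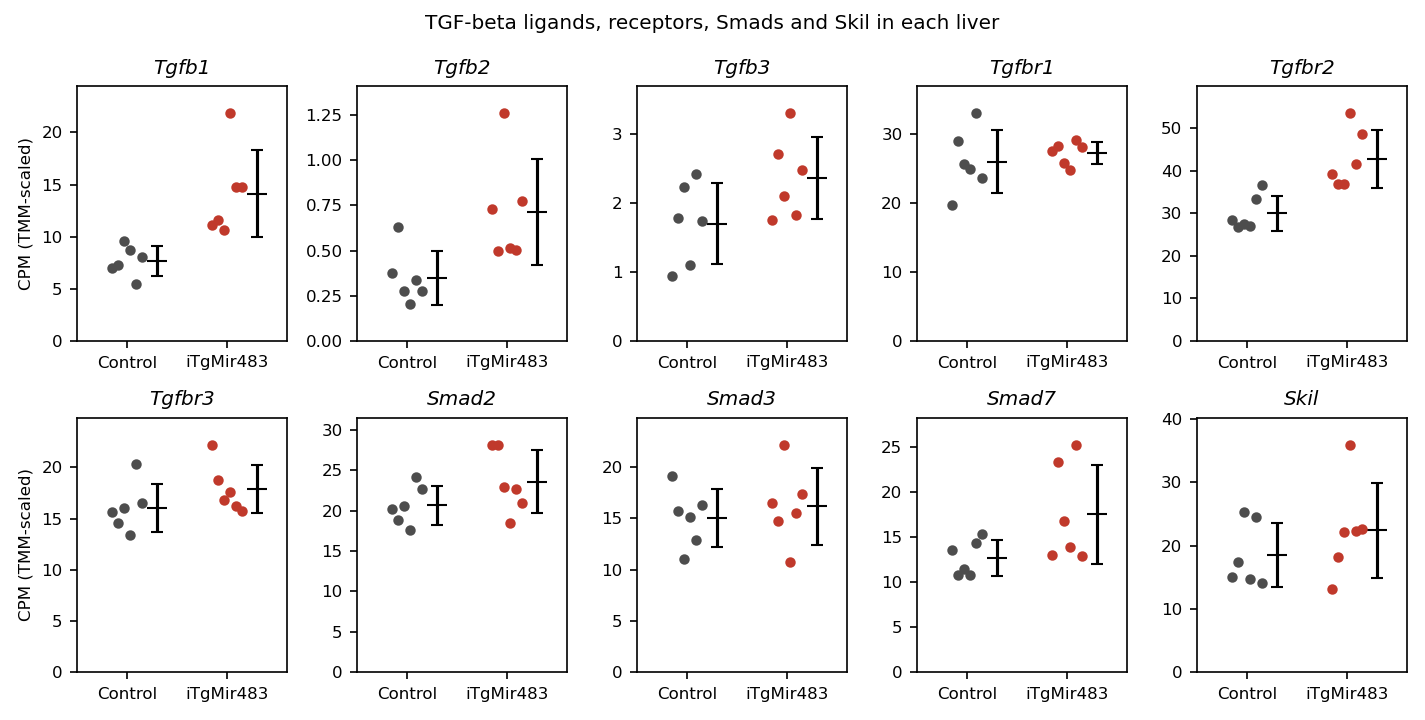
CPM (TMM-scaled, each y axis from 0) of the 10 members in 6 Control (grey) and 6 iTgMir483 (red) livers, with 1 point per library and the group mean ± SD beside it. The groups do not overlap for Tgfb1 and Tgfbr2, and overlap for the other 8 genes.

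Tgfb1 encodes the ligand most often studied in liver disease. Its level in Control was 5.42 CPM at the lowest, 7.65 at the median and 9.55 at the highest. In iTgMir483 it was 10.6 CPM at the lowest, 13.2 at the median and 21.8 at the highest. All 6 iTgMir483 livers were therefore above all 6 Control livers, and replicate 4 stood above the other iTgMir483 livers, which reached 14.8 CPM. The mean was 7.67 ± 1.44 CPM (SD, n = 6) in Control and 14.1 ± 4.19 CPM (SD, n = 6) in iTgMir483. The log2 fold change was 0.88 with a standard error of 0.18 and an adjusted p of 0.0055, a 1.84-fold rise. In a two-sided exact permutation test on Tgfb1 alone, p was 0.0022, the smallest that reassigning the libraries to groups can give. Any gene whose groups do not overlap gives this value, so it adds nothing to the lack of overlap. Without iTgMir483 replicate 4 the log2 fold change was 0.71, with an adjusted p of 0.00676.

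Because Tgfb1 was the member that changed, the 250 bases before its annotated start are shown (RefSeq, chr7:25686752-25687001 on GRCm38.p6, plus strand). The gene itself spans chr7:25687002-25705077. The capitals mark matches to the GC box GGGCGG on either strand.
Tgfb1 promoter: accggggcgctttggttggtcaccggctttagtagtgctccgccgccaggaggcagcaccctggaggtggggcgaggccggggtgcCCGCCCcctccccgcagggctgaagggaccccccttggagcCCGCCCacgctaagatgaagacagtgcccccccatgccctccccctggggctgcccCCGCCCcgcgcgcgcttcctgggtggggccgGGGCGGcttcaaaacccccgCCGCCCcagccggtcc

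The window held 5 GC boxes and was 75.2% G and C, against a median of 52.0% over all promoters of the table. It held no AP-1 motif (TGANTCA) and no Smad box (CAGAC), each searched on both strands. In the 27025 promoter windows of the same length, a GC box was found in 32.9%, an AP-1 motif in 6.87% and a Smad box in 42.1%.

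Tgfb3 encodes a ligand made largely by mesenchymal cells. It was detected at a low level in every library, from 0.94 to 2.41 CPM in Control with a median of 1.76 CPM, and from 1.75 to 3.30 CPM in iTgMir483 with a median of 2.29 CPM. The groups overlapped, and 3 of 6 iTgMir483 livers lay above the highest Control. Its log2 fold change of 0.49 (SE 0.26) did not pass, with an adjusted p of 0.200. Tgfb3 shares 163 and 257 exon bases with the transcripts Gm37804 and Gm48008 on the opposite strand, so part of its count is uncertain.

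Tgfb2, the third ligand, was near the limit of detection, with 3 to 11 counts per library in Control and 7 to 21 in iTgMir483. That corresponds to 0.35 ± 0.15 CPM (SD, n = 6) and 0.71 ± 0.29 CPM (SD, n = 6). All 6 iTgMir483 livers were above the Control median of 0.31 CPM, and 3 of 6 above the Control maximum of 0.63 CPM. It was not tested, and it shares 124 exon bases with an antisense transcript.

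The type II receptor Tgfbr2, the chain that binds the ligand and starts the signal, was higher in iTgMir483. It ranged in Control from 26.9 CPM at the lowest to 36.7 at the highest, with a median of 28.0. In iTgMir483 the lowest value was 36.83 CPM, the median 40.5 and the highest 53.6. The groups did not overlap, but only narrowly, since the highest Control (36.67 CPM) lay just under the lowest iTgMir483. The log2 fold change was 0.52 with a standard error of 0.12 and an adjusted p of 0.00848. In the two-sided exact permutation test p was 0.0022, which follows from the lack of overlap alone. At 1.43-fold this rise was under the fold threshold of 1.5. The 3′ UTR of Tgfbr2 holds the matches to both mature microRNAs printed above, and an effect of these matches on its level was not tested.

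The 250 bases before the start of Tgfbr2, the other member whose groups did not overlap, are given for comparison with those of Tgfb1 (RefSeq, chr9:116175364-116175613 on GRCm38.p6, minus strand). The capitals mark a match to the Smad box CAGAC.
Tgfbr2 promoter: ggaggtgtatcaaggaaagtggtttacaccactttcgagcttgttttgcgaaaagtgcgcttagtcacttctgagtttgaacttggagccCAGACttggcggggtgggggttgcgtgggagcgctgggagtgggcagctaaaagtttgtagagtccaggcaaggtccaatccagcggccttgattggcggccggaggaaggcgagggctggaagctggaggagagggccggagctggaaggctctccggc

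The window of Tgfbr2 held 1 Smad box, no GC box and no AP-1 motif, and was 58.4% G and C. It therefore shared none of the searched motifs with the Tgfb1 window. No match says only that these letters are not in this window.

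The type I receptor Tgfbr1, the kinase that phosphorylates Smad2 and Smad3, was close to level between the groups. It ranged from 19.6 to 33.0 CPM in Control, with a median of 25.3, and from 24.8 to 29.1 CPM in iTgMir483, with a median of 27.8. The iTgMir483 values all lay inside the Control range. Its log2 fold change was 0.07 (SE 0.11), with an adjusted p of 0.700 and a 95% interval from -0.15 to 0.287. The interval of Tgfbr2, from 0.286 to 0.746, just overlapped it, and these receptors are compared directly by their ratio below. The co-receptor Tgfbr3 (betaglycan), which presents ligand to Tgfbr2, ran from 13.4 to 20.3 CPM in Control and from 15.8 to 22.2 CPM in iTgMir483. The Tgfbr3 groups overlapped widely, and the log2 fold change of 0.16 (SE 0.12) had an adjusted p of 0.362 and an interval from -0.07 to 0.38. Tgfbr3 shares 297 exon bases with the transcript Gm43422 on its own strand.

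**Figure D2:**
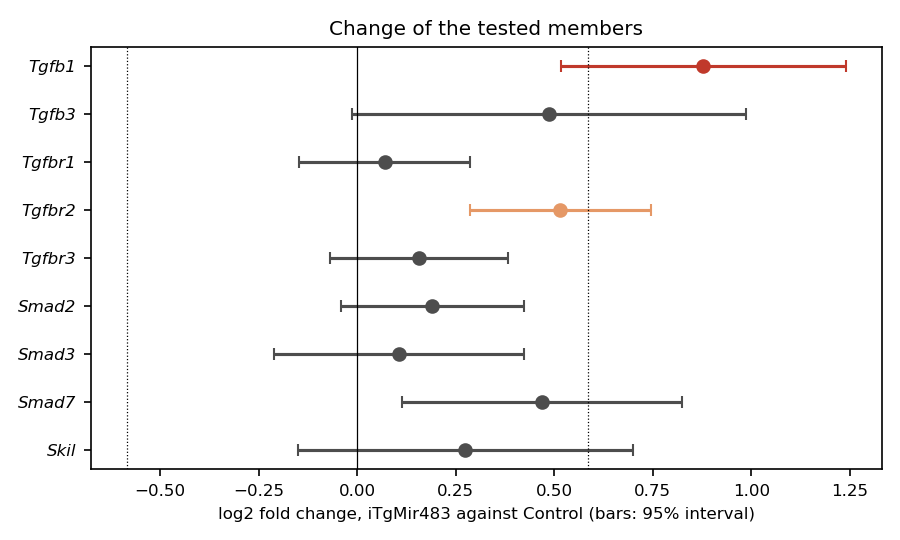
Log2 fold change of iTgMir483 against Control for the 9 tested members, with 95% intervals from the standard error; dotted lines mark a fold change of 1.5 in either direction. Tgfb1 (red) passed both thresholds, Tgfbr2 (orange) passed the adjusted p at a log2 fold change of 0.52, and the other 7 (grey) passed neither.

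The receptor-activated Smads did not pass the test. Smad2 ranged from 17.6 to 24.1 CPM in Control and from 18.5 to 28.1 CPM in iTgMir483, and 2 of 6 iTgMir483 livers lay above the highest Control. Its log2 fold change was 0.19 (SE 0.12, adjusted p 0.279). Smad3 ranged from 11.01 to 19.1 CPM in Control and from 10.7 to 22.1 CPM in iTgMir483, so that the iTgMir483 livers spread beyond the Control range at both ends. The log2 fold change of Smad3 was 0.11 (SE 0.16, adjusted p 0.688), with an interval from -0.21 to 0.42.

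The feedback inhibitors Smad7 and Skil, which TGF-beta signalling itself induces, also did not pass. Smad7, which blocks the type I receptor, was 10.8 CPM at the lowest, 12.5 at the median and 15.4 at the highest in Control. In iTgMir483 it was 12.9 CPM at the lowest, 15.3 at the median and 25.2 at the highest. All 6 iTgMir483 livers were above the Control median and 3 were above the Control maximum, with replicates 2 and 5 highest at 23.3 and 25.2 CPM. The log2 fold change of Smad7 was 0.47 with a standard error of 0.18, and it missed the threshold with an adjusted p of 0.0853 (exact permutation p = 0.058). Without iTgMir483 replicate 1 it was 0.54 with an adjusted p of 0.0487, still under the fold threshold. That was the only 1 of 21 alternative fits with an adjusted p under 0.05. Without iTgMir483 replicate 2 it was 0.37 (adjusted p 0.165), and without replicate 5 it was 0.33 (adjusted p 0.190). Skil, the nuclear repressor, ranged from 14.2 to 25.3 CPM in Control and from 13.1 to 35.9 CPM in iTgMir483. The spread of Skil within a group was as wide as the difference, and its log2 fold change of 0.27 (SE 0.22) had an adjusted p of 0.402.

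Levels of different genes can be set side by side only per length, and were taken as CPM per kilobase of exon. In Control the order ran from Tgfbr1 (3.98 ± 0.70, SD, n = 6) and Tgfbr2 (3.66 ± 0.50) through Smad7 (2.81 ± 0.44), Smad3 (2.71 ± 0.50), Tgfbr3 (2.46 ± 0.36), Smad2 (2.35 ± 0.27) and Skil (1.91 ± 0.52) to Tgfb1 (1.52 ± 0.29), Tgfb3 (0.50 ± 0.17) and Tgfb2 (0.061 ± 0.026). The ranges of neighbours in this order overlapped down to Tgfb1, whose range lay wholly above that of Tgfb3, as did that of Tgfb3 above Tgfb2. Among the ligand transcripts, Tgfb1 was thus the most abundant in Control liver. In iTgMir483 the level of Tgfb1 was 2.80 ± 0.83 and that of Tgfbr2 was 5.23 ± 0.84 CPM per kilobase. Divided by the longest transcript in place of all exons, Tgfb1 in Control came to 2.98 and Skil to 2.76 CPM per kilobase, so the place of Tgfb1 in this order depends on the length used.

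Whether members of one role changed by different amounts was tested on the ratio of the members within each library, in 8 pairs. The Tgfbr1 to Tgfbr2 ratio moved by -0.42 on the log2 scale (95% interval -0.78 to -0.06), with p = 0.0325 in a two-sided exact permutation test and 0.190 after adjustment over the pairs. The Tgfbr2 to Tgfbr3 ratio moved by 0.35 (interval 0.02 to 0.68), with an exact permutation p of 0.0476 and the same adjusted value. Neither receptor pair thus held after adjustment, and the p of the first was above 0.05 in 5 of the 12 fits that left out a library, that of the second in 9 of them. Between the ligands Tgfb1 and Tgfb3 the difference was 0.37, with an interval from -0.27 to 1.001 and an exact permutation p of 0.238, so a larger rise of Tgfb1 than of Tgfb3 was not shown. For the 5 remaining pairs, including Smad2 to Smad7 and Smad7 to Skil, the unadjusted exact permutation p ran from 0.221 to 0.665. The Smad2 to Smad7 difference was -0.24 over all libraries and -0.37, with an unadjusted exact permutation p of 0.0108, without iTgMir483 replicate 1. That was the only 1 of its 12 fits without a library in which this p was under 0.05. Without iTgMir483 replicate 5 the difference was -0.12, with an unadjusted exact permutation p of 0.448.

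The variation of the members within the groups was described with Pearson's r of log2 CPM over the 12 libraries, group means removed, for all 36 pairs of tested members. In 17 pairs r lay between -0.3 and 0.3, as for Tgfbr1 with Tgfbr2 at -0.01. The highest values were 0.78 for Tgfbr3 with Smad2 and 0.72 for Tgfb3 with Skil, and the lowest were -0.73 for Tgfb1 with Smad2, -0.68 for Tgfb3 with Smad3 and -0.65 for Smad3 with Skil. For Tgfb1 with Tgfbr2 r was 0.42 and for Tgfb1 with Smad3 -0.58. Without iTgMir483 replicate 4, a choice made after seeing the data, these became 0.06 and -0.27, so both rested largely on that library. In the same 11 libraries r was 0.92 for Tgfbr3 with Smad2, 0.65 for Tgfb3 with Skil, -0.58 for Tgfb1 with Smad2, -0.60 for Tgfb3 with Smad3 and -0.44 for Smad3 with Skil. These values share libraries and their depth and describe these livers only.

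The genes whose within-group variation was most like that of each member were taken from 12494 tested genes with a mean of at least 1 CPM. For Tgfb1 they were H2-K1 (r = 0.90), a class I histocompatibility gene with near-identical paralogs that may share its reads, and Fpgs (r = 0.89), a folate enzyme. For Tgfbr2 they were Ebi3 (r = 0.96), a subunit of the cytokines IL-27 and IL-35, and Smpd3 (r = 0.96), a neutral sphingomyelinase. Both rose themselves, Ebi3 by 1.49 on the log2 scale (adjusted p 0.00572) and Smpd3 by 1.47 (adjusted p 0.00659). The closest genes were Zfp410 (r = 0.95) and Rhbdf1 (r = 0.90) for Tgfb3, Nat1 (r = 0.92) and Abhd17b (r = 0.91) for Tgfbr1, and Josd1 (r = 0.87) and Cryz (r = 0.84) for Tgfbr3. They were Rnf14 (r = 0.90) and Fkbp3 (r = 0.89) for Smad2, Ppox (r = 0.92) and Kank1 (r = 0.92) for Smad3, 5730409E04Rik (r = 0.83) and Ttc28 (r = 0.82) for Smad7, and Dusp8 (r = 0.94) and Hip1r (r = 0.91) for Skil. All values are over 12 libraries and were picked as the highest among the genes searched, so they describe these livers and test nothing.

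The pathway around the members was followed in 5 lists. Their counts were read against the same 8.41% and 2.73% of all tested genes. Of 17 tested genes that hold TGF-beta latent or release it, 5 rose and 0 fell, and the median log2 fold change was 0.30. Thbs1, thrombospondin 1, which can activate the latent complex, rose most, by 1.35 on the log2 scale, from 1.19 to 2.54 CPM in Control to 2.55 to 5.82 CPM in iTgMir483. Nrros, which anchors latent TGF-beta1 on macrophages and microglia, rose by 0.87 on the log2 scale, and its groups did not overlap either. Ltbp3, a latent TGF-beta binding protein, rose by 0.81, and the matrix genes Fbn1 (fibrillin 1) and Emilin1 by 0.89 and 0.77. Each of these 5 calls held when any library was left out. At an unadjusted p under 0.05, 8 genes of this list were higher and 0 lower, and DESeq2 and limma-voom each called 6 and 0. Over all genes, in both directions, DESeq2 called 1629 and limma-voom 1412, against 1470 by edgeR. The share of all genes at an unadjusted p under 0.05 is not given, so the count at that p has no background.

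Of 15 tested co-receptors and regulators of the receptors, 1 rose and 0 fell, with a median of 0.10. Acvrl1, which encodes the type I receptor ALK1 of endothelial cells, rose 2.02-fold, from 1.37 to 4.26 CPM in Control to 5.07 to 9.23 CPM in iTgMir483 (adjusted p 0.00863). Its co-receptor Eng (endoglin) passed adjusted p at a log2 fold change of only 0.28 (adjusted p 0.0266), and the pseudoreceptor Bambi had -0.06 (adjusted p 0.827). Also past adjusted p alone were Smurf1, a ubiquitin ligase that acts on receptors and Smads, at 0.47 and, in the other direction, the deubiquitinases Usp15 and Usp4, at -0.41 and -0.32. These last 3 were named after their values were seen. Of 15 Smad partners and repressors, 1 rose and 0 fell, with a median of 0.01. It was the repressor Tgif2 at 0.72 (adjusted p 0.0461), with at most 1.21 CPM in any library, and its call was kept only when Control replicate 3 or iTgMir483 replicate 6 was the library left out. DESeq2, limma-voom and the fit with the replicate block did not call it either. Smad4, the shared partner of Smad2 and Smad3, had a log2 fold change of -0.22 (adjusted p 0.264), and Ski, the relative of Skil, 0.31 (adjusted p 0.0758).

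Among 16 tested common target genes of TGF-beta, 2 rose and 1 fell, with a median of 0.49. Tgfbi, a secreted matrix protein named for its induction by TGF-beta, rose by 0.99 (SE 0.15, adjusted p 0.00111), with a median of 50.6 CPM in Control and 110.0 CPM in iTgMir483. Pdgfb, a mitogen of stellate cells, rose by 0.79 (adjusted p 0.0122). Snai2, a repressor of epithelial genes, fell by 0.86 on the log2 scale (adjusted p 0.0397), a call lost when any of 7 libraries was left out, Control replicates 4 and 6 and iTgMir483 replicates 1, 2, 3, 4 and 6.

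The contractile and matrix genes of activated stellate cells were not among the targets that changed. Acta2 (smooth muscle actin) had a log2 fold change of -0.60 (adjusted p 0.433) and Tagln of -0.26 (adjusted p 0.551). The collagen gene Col1a1 had 0.69 (SE 0.35, adjusted p 0.189), and Ccn2, the connective tissue growth factor, 0.36 (adjusted p 0.567). Within the groups these genes spread widely, Acta2 from 1.65 to 12.0 CPM and Ccn2 from 3.70 to 27.2 CPM in Control. Leaving out Control replicate 1 brought Col1a1, Col3a1 and Junb past both thresholds, so that 5 targets rose, and without replicate 1 of both groups 6 rose. Col3a1 and Junb were named after their values were seen. DESeq2 and the fit with the replicate block each called 4 higher.

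In the neighbouring branch of bone morphogenetic proteins and activins, 2 of 27 tested genes rose and 2 fell, with a median of 0.12, and without replicate 1 of both groups 4 rose and 1 fell. Inhba, the activin A subunit, rose by 0.88 (adjusted p 0.0159), and Fstl1, a follistatin-like secreted protein, by 1.004 (adjusted p 0.00246). The activin receptor Acvr2a fell by 0.60 (adjusted p 0.00383), with no overlap of the groups, and Smad9 fell by 0.89 (adjusted p 0.0283). Acvr2a lay just past the fold threshold, and the count of both genes depended on single libraries. The Acvr2a call was lost without Control replicate 2 or 4 or iTgMir483 replicate 3 or 4, and the Smad9 call without Control replicate 1 or 4 or iTgMir483 replicate 4 or 5. With the replicate number as a block Acvr2a kept its call and Smad9 did not (adjusted p 0.0607).

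**Figure D3:**
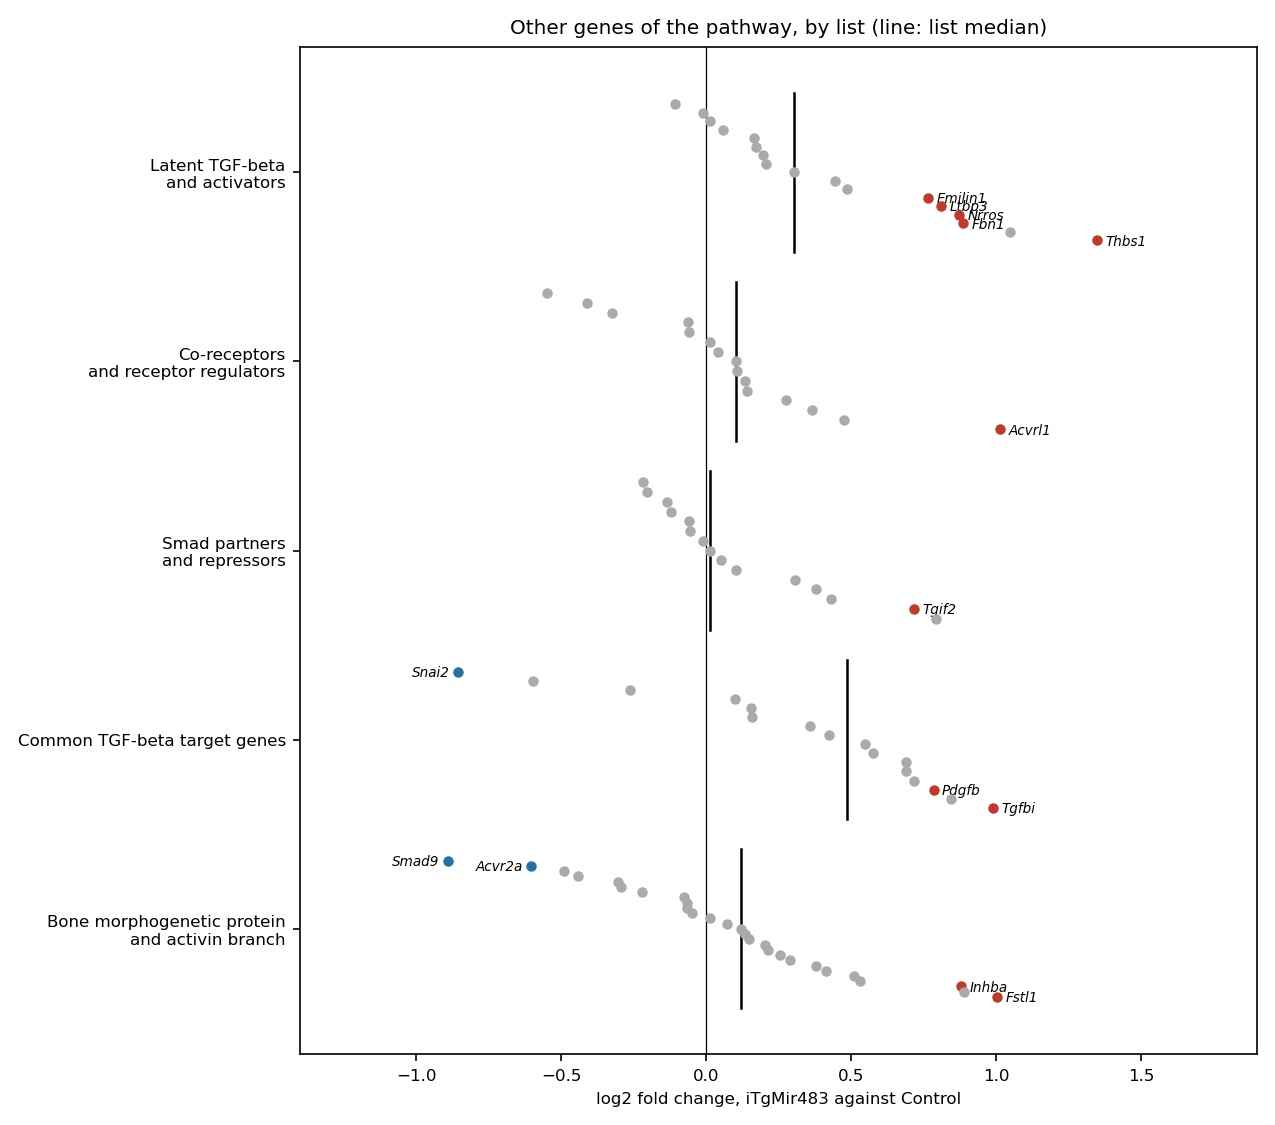
Log2 fold change of iTgMir483 against Control for each tested gene of the 5 lists around the members, sorted within a list, with the list median as a vertical line. Red points rose and blue points fell past both thresholds and are named, 11 and 3 in all, and grey points did not pass. Thbs1, at 1.35, lies farthest to the right.

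Macrophage transcripts were higher in the same livers as Tgfb1. Of 7 Kupffer cell and macrophage markers, 6 rose (Clec4f, Adgre1, Cd5l, Csf1r, Cd68 and Timd4) and Vsig4 did not pass (adjusted p 0.0527). DESeq2 called 6 and limma-voom 5, and the Cd68 call was lost without iTgMir483 replicate 4, at a log2 fold change of 0.55. The summed level of the 7 markers was 275.9 to 402.5 CPM in Control and 423.6 to 1130 CPM in iTgMir483, and no marker was at 0 in any library. The highest sum was in iTgMir483 replicate 4, which was also the highest for Tgfb1, Tgfbr2, Nrros and Skil. With the group means removed, Pearson's r of the summed macrophage level over the 12 libraries was 0.71 with Tgfb1, 0.50 with Tgfbr2, 0.71 with Skil and -0.84 with Smad3. Without iTgMir483 replicate 4 it was 0.30 with Tgfb1, 0.01 with Tgfbr2, 0.48 with Skil and -0.77 with Smad3, so the values for Tgfb1 and Tgfbr2 depended on that library. The part of the macrophage transcripts in the rise of Tgfb1, Tgfbr2 and Nrros was not tested.

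**Figure D4:**
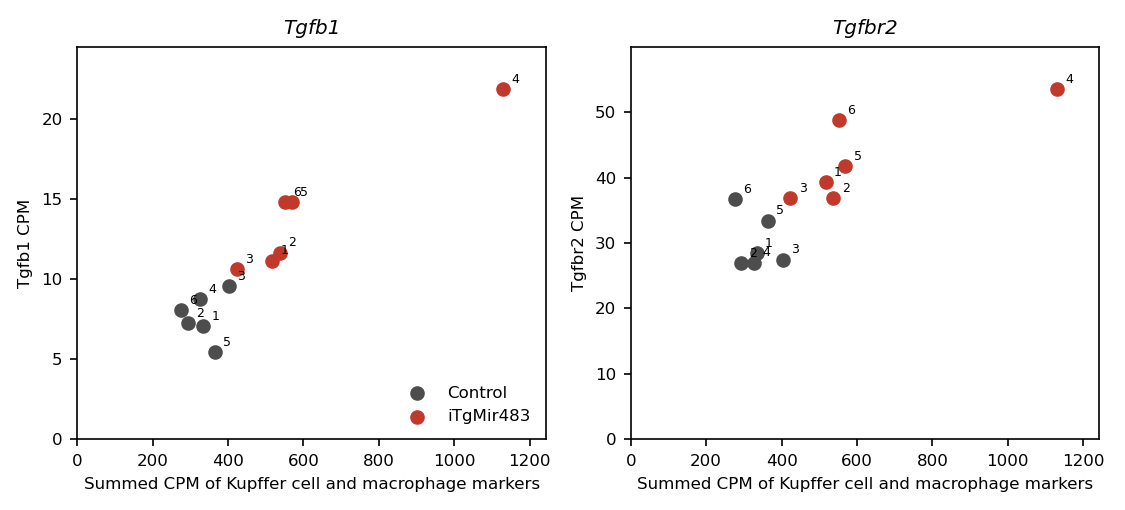
Tgfb1 (left) and Tgfbr2 (right) in CPM against the summed CPM of the 7 Kupffer cell and macrophage markers, both axes from 0, with 1 numbered point per library (Control grey, iTgMir483 red, numbers are replicates). All 6 iTgMir483 livers lie above the highest Control sum of 402.5 CPM, and replicate 4 is highest on both axes.

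For the other cell types that make or answer TGF-beta, 0 of 8 stellate cell markers changed, with a median log2 fold change of 0.26. Their sums were 330.8 to 433.2 CPM in Control and 352.2 to 451.8 CPM in iTgMir483. Much of each sum was Ecm1, at a mean of 220.4 CPM in Control, the only stellate marker with a negative log2 fold change (-0.19). Of 7 markers of sinusoidal endothelium 0 changed, with sums of 272.6 to 318.8 and 250.4 to 364.5 CPM, although Pecam1 passed adjusted p alone (0.0239). At an unadjusted p under 0.05, edgeR had 2 stellate and 2 endothelial markers higher and 0 lower, and DESeq2 and limma-voom called 0 of either. Marker counts at an unadjusted p, here and below, have no share of all genes beside them. With the group means removed, the stellate sum had an r of 0.78 with Skil and 0.67 with Tgfb3, but 0.19 with Tgfb1. Of 5 bile duct markers 3 rose (Krt7, Epcam and Spp1), while Krt19 (0.10, adjusted p 0.825) and Sox9 (0.26, adjusted p 0.425) did not pass. The bile duct sums were 20.9 to 46.1 CPM in Control and 60.7 to 89.1 CPM in iTgMir483. They were mostly Spp1, with a mean of 25.6 CPM in Control and 63.6 CPM in iTgMir483. The neutrophil genes S100a8 and S100a9 rose, with sums of the 4 neutrophil markers of 0.62 to 2.37 and 2.16 to 14.1 CPM, while Ly6g had at most 2 counts and was at 0 in 11 libraries. Of the tested hepatocyte, lymphocyte, platelet, red cell and mesothelial markers, 0 changed, also by DESeq2 and limma-voom, with 1 platelet marker higher and 1 hepatocyte and 1 lymphocyte marker lower at an unadjusted p under 0.05. The hepatocyte gene was Cyp2e1, which also passed the adjusted p, at a log2 fold change of -0.43 (adjusted p 0.0404). Hepatocyte sums reached from 119300 to 165800 CPM in Control and from 58000 to 131200 CPM in iTgMir483.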

How the data were processed

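The authors made stranded poly(A) libraries, sequenced them as paired reads, aligned them to GRCm38 with STAR and deposited raw counts per Ensembl gene. The strand column used is not given in the sources used here, so overlapping genes are uncertain. Of the 55401 identifiers, 55141 were given a symbol from GENCODE M21. The counts were fitted over all 12 libraries with edgeR 4.0.16 (filterByExpr, TMM, quasi-likelihood F-test, Benjamini-Hochberg adjustment), in R 4.3.3. CPM are TMM-scaled. Permutation tests and correlations used log2 CPM with a prior count of 2, and intervals of single genes are 1.96 standard errors wide on each side. limma 3.58.1 and DESeq2 1.42.0 served as alternatives. The fit was tested on simulated counts. No 2 libraries of the same group agreed within sampling noise, with a chi-square per gene of at least 15.6. All libraries carry one pool label, so no batch could be examined. Nothing in the labels ties replicate numbers to shared animals or days. P-values measure the spread between these animals. The members, the gene lists and the tests were chosen with earlier results of these data known. Named genes were all members, list genes past both thresholds, 10 list genes given whatever they showed, and for each member the 2 genes most alike. Smurf1, Usp15, Usp4, Col3a1 and Junb were added after their values were seen. Other list genes past adjusted p alone, such as Itgb5, Zeb2 and Id2, were not described. 1 list gene is not reported here and was left out of the list counts.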

Additional observations from a re-analysis of the deposited data

Results flagged for a closer look

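Within the iTgMir483 group, 2 single libraries stood apart from the other 5 by Dixon's ratio, the gap to the nearest library divided by the range of the group. Tgfb1 in iTgMir483 replicate 4 was at 21.8 CPM, against 10.6 to 14.8 CPM in the others, with a ratio of 0.628. Tgfb2 in iTgMir483 replicate 3 was at 1.26 CPM, from 21 counts, against 0.50 to 0.77 CPM, with a ratio of 0.639. Both are just past the 95% critical value for 6 samples, and chance gives about 1 such library among the 20 groups examined.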

How the results depend on the processing

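Tgfb1 kept its call in 20 of 21 alternatives, at log2 fold changes from 0.71 to 0.95. Among these 20, adjusted p alone was the main fit without the fold threshold, so for Tgfb1 and Tgfbr2 it could not differ. The exception was edgeR's test against a fold change of 1.5, which asks for more than a rise (adjusted p 0.339). Tgfbr2 stayed past the adjusted p, at 0.44 to 0.58, in the same 20. That stricter test left 226 genes changed, 0 members higher, 1 list gene higher and 0 lower, and adjusted p alone gave 2457 genes, 2 members higher and 5 list genes lower, against 1470 genes, 1 member, 11 and 3. Without single libraries, 1190 to 1653 genes changed, 1 member rose in each fit, 10 to 14 list genes rose and 0 to 3 fell. Without replicate 1 of both groups, 1696 genes changed, 16 list genes rose and 1 fell. Tgfbr1 turned to -0.00082 without Control replicate 1 and to -0.0023 without replicate 1 of both groups, and Smad3 to -0.0053 without iTgMir483 replicate 3. Across the fits that left out 1 library, the log2 fold change ran from -0.00082 to 0.15 for Tgfbr1 and from -0.0053 to 0.20 for Smad3. The replicate numbers are shared by the groups, and same-numbered libraries correlated at 0.0339 to 0.44, with replicate 1 highest. Libraries of different numbers were not compared in this way, so whether the numbers pair the samples was not tested. With the replicate block 1530 genes, 1 member and 13 list genes higher and 2 lower were called, and Tgfb1 had 0.86 (adjusted p 0.00732). The ratio of 2 members depends on the scaling only through the prior count added to each, and no value with other size factors was computed. Tgfb2, with at most 21 counts in a library, was too low to test.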
